A study of Saccharomyces cerevisiae with 5 samples.

Results

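The genes described here are the mating-type specific genes of *Saccharomyces cerevisiae*, chosen by 10 systematic names. The a-specific genes are *MFA1* (YDR461W, chromosome IV), *MFA2* (YNL145W, XIV), *STE2* (YFL026W, VI), *STE6* (YKL209C, XI), *BAR1* (YIL015W, IX) and *AGA2* (YGL032C, VII). The alpha-specific genes are *STE3* (YKL178C, XI), *MFALPHA1* (YPL187W, XVI), *MFALPHA2* (YGL089C) and *SAG1* (YJR004C, X). Of these, 9 had a row in each host table of 5264 genes, that is 6 a-specific and 3 alpha-specific genes. *MFALPHA2* had no row in these tables and is not analysed here. All 9 were among the 5252 genes that passed a filter on low signal in every library.

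Nucleosomes were mapped in 5 yeast strains that carry yeast artificial chromosomes (YACs), vectors with telomeres and a centromere that can hold long inserts of foreign DNA. Strains YAC1, YAC2 and YAC3 carried DNA of *Kluyveromyces lactis*, and strains YAC6 and YAC7 DNA of *Debaryomyces hansenii*. All were grown with 2% dextrose in a medium that the labels call free of tryptophan and uracil but also list with yeast extract and peptone. Cell walls were removed with zymolyase, and chromatin was digested with micrococcal nuclease, which cuts the DNA between nucleosomes. Each strain gave 1 library of mononucleosomal DNA, so the spread given below is that between 5 different strains and may hold biological and technical parts. Neither the mating type nor the name of the host strain is given in the sources used here, and no RNA was used here, so the sets are named by class and are not called active or repressed.

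Haploid yeast cells are of mating type a or alpha, and each type makes its own pheromone, the receptor for the pheromone of the other type, and its own surface agglutinin. The a-specific genes are activated by the factor Mcm1 in a cells, while in alpha cells the alpha2 protein, Mcm1 and the Tup1-Cyc8 corepressor shut them off, a state known for nucleosomes placed next to the alpha2 operator. The alpha-specific genes need the activator alpha1 together with Mcm1, so a cells, which lack alpha1, leave them off without a dedicated repressor.

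Coverage by nucleosomal DNA is given per 10 bp bin, from 500 bp upstream to 1000 bp downstream of each listed start and in the direction of the gene. Its unit is arbitrary, so the number of reads behind it is unknown. The lower values, the only ones checked, are multiples of a smallest step. The mean host bin held 396 to 1739 of these steps, with YAC1 and YAC6 finest and YAC3 coarsest. Host promoters were also deeper in YAC1 and YAC6 than in the other libraries. The chromosome that carries a member can stand off in YAC2 and YAC3. For example, the median gene of chromosome VI, home of *STE2*, had 0.66 and 1.62 times the signal of the median host gene in YAC2 and YAC3, against 1.01 to 1.08 times in the other libraries. Ratios within a gene are therefore used below, and any part of the chromosome level in them was not tested. Across 10 pairs of libraries the profile of a member correlated with a median r between 0.832 (*STE2*) and 0.939 (*MFALPHA1*), as a description over all bins, against a median of 0.863 for host genes. The lowest r of any single pair was 0.569, also in *MFALPHA1*.

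**Figure D1:**
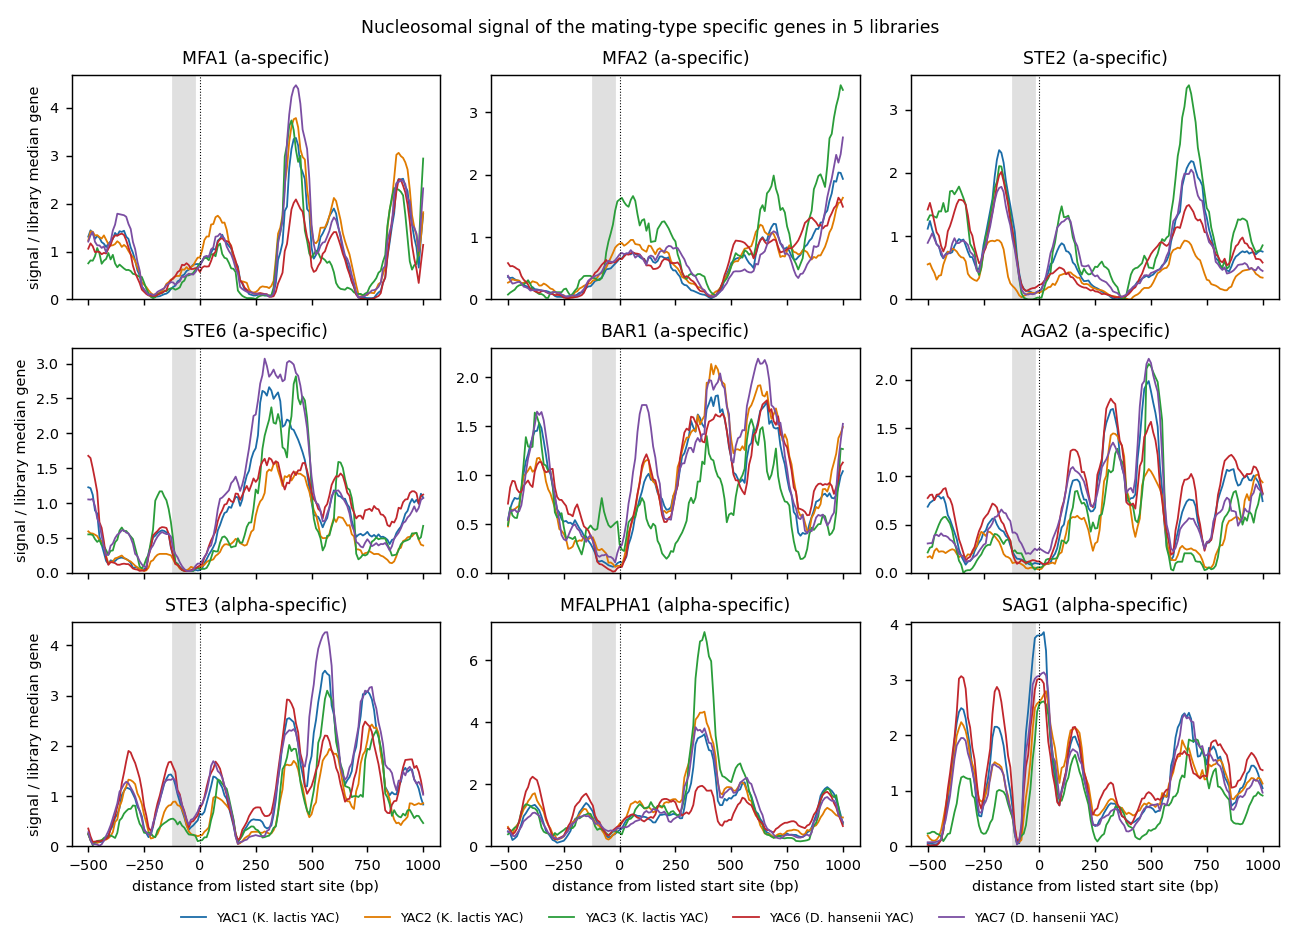
Nucleosomal signal (y axis, divided by the median gene mean of the library) against distance from the listed start site (x axis, bp) for the 6 a-specific and 3 alpha-specific genes, with 1 line per library and the promoter window of -120 to -20 bp in grey. Most a-specific genes have a broad gap upstream of or across the start, for example -120 to +60 bp in *STE6*. *STE3* and *MFALPHA1* have nucleosome peaks at -130 and -150 bp. Upstream peaks also stand at -180 bp in *STE2*, -170 bp in *STE6* and -200 bp in *AGA2*.

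The nucleosome-poor stretch near the start was longer in the median a-specific gene than in the median alpha-specific gene in each of the 5 libraries. Of the a-specific genes, *STE2* was below the host median in 4 of 5 libraries. The measure is the longest run of bins below 0.5 times the mean signal of the gene that touches the region from -350 to +50 bp. This measure was chosen once values had been looked at, and it is described without a test. The median over the 6 a-specific genes was 225 bp in YAC1, 240 bp in YAC2, 200 bp in YAC3, 210 bp in YAC6 and 215 bp in YAC7. The median over the 3 alpha-specific genes was 70, 90, 130, 30 and 70 bp in the same order of libraries, and that over host genes was 160, 140, 170, 150 and 160 bp. The difference between the sets was 140 ± 41.4 bp (SD, n = 5 libraries), and it was 130 bp without *SAG1*, whose listed start site is displaced. In 4 of 5 libraries every a-specific gene had a longer stretch than every alpha-specific gene. In YAC1 and YAC7 this held narrowly, with 110 bp in *STE2* against 100 bp in *MFALPHA1*. YAC3 was the exception, where *BAR1* had a stretch of 60 bp, against 130 bp in *STE3* and 140 bp in *MFALPHA1*, and *STE2* also had 140 bp. At 0.7 times the gene mean YAC7 was a further exception, with 130 bp in *STE2*, against 170 bp in *MFALPHA1*.

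Among the a-specific genes *MFA2* had the longest stretch, with 340 ± 48.5 bp (SD, n = 5), above the host median in 5 of 5 libraries. *BAR1* had 222 ± 100.8 bp and *MFA1* 194 ± 28.8 bp, each above the host median in 4 of 5 libraries. *STE6* and *AGA2* had 212 ± 13.04 and 212 ± 37.7 bp, above the host median in 5 and 4 of 5 libraries. Against host genes these 5 stood at mean percentiles between 63.9 and 91.9. *STE2* had the shortest stretch of the set, 130 ± 21.2 bp, above the host median only in YAC2. The alpha-specific genes *MFALPHA1* (98 ± 28.6 bp), *STE3* (78 ± 36.3 bp) and *SAG1* (38 ± 13.04 bp) were below the host median in every library, at mean percentiles of 16.2, 11.5 and 3.69.

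**Figure D2:**
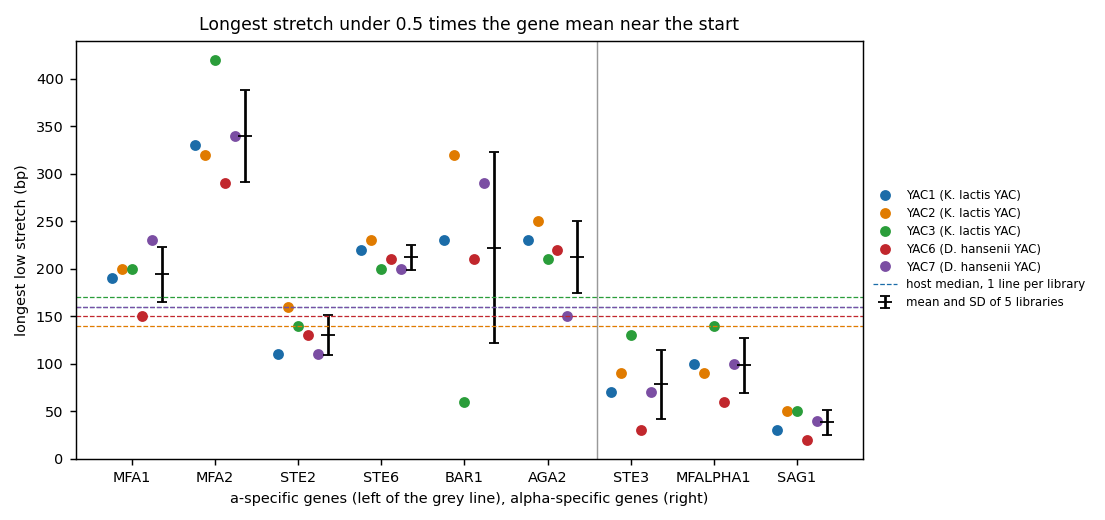
Longest stretch below 0.5 times the gene mean that touches -350 to +50 bp (y axis, bp) for each gene (x axis), with 1 point per library, the mean and SD of 5 libraries in black and the host median of each library as a dashed line. *MFA2* lies between 290 and 420 bp and *SAG1* between 20 and 50 bp, and *BAR1* in YAC3 is the low point of its set at 60 bp.

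The pheromone genes differed in where the gap lay. *MFA1* and *MFA2* encode precursors of a-factor, a short lipid-modified peptide. In the mean profile of *MFA1* the gap ran from -260 to -90 bp, with a trough at -200 bp of 0.11 times the gene mean (0.08 to 0.13 in the 5 libraries). The signal then climbed across the start to a peak at +90 bp. In *MFA2* the gap ran from -450 to -130 bp, and the lowest bins, near -230 bp, stood at 0.10 times the gene mean (0.05 to 0.14). Its upstream DNA from -500 to -130 bp held only 0.177 ± 0.02 times the signal of the median host gene (SD, n = 5), the lowest of the 9 genes. In both genes the lowest signal upstream of the start thus lay outside the promoter window, which begins at -120 bp. Further gaps followed at +180 to +330 and +680 to +810 bp in *MFA1*, the last with a trough at +740 bp of 0.092 times the gene mean, and at +330 to +460 bp in *MFA2*. Both coding regions are far shorter than the stretch plotted, so much of the window downstream of the start lies past them.

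*MFALPHA1*, which encodes the main precursor of alpha-factor, had no such gap. A nucleosome peak stood at -160 bp in YAC2, YAC6 and YAC7 and at -150 bp in YAC1 and YAC3, in the middle of the region where *MFA1* was emptiest. The troughs on either side, at -280 and -50 bp, kept 0.26 and 0.38 times the gene mean. From 0 to +200 bp a separate first peak was found only in YAC7, at +160 bp. Further downstream, the mean profile peaked at +370 bp at 3.23 times the gene mean, with 1.75 times in the lowest library and 4.65 times in the highest. Signal from +100 to +500 bp was 1.97 ± 0.55 times that of the median host gene (SD, n = 5). That signal is the denominator of the promoter ratio given below.

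The transporter *STE6*, which exports a-factor from a cells, had the emptiest promoter window of the 9 genes on average. The signal from -120 to -20 bp was 0.08, 0.08, 0.10, 0.08 and 0.13 times the median host gene in YAC1, YAC2, YAC3, YAC6 and YAC7. That placed it at the 12.6 to 31.1 percentiles of host promoters by signal, with the 5 libraries close together. A single peak at -170 bp (-160 bp in YAC2 and YAC7) separated this gap from another at -420 to -220 bp. In the mean profile that peak reached 0.77 times the gene mean. No separate first peak was found from 0 to +200 bp in any library, and the signal climbed to a broad maximum at +330 bp of 2.70 times the gene mean. The upstream neighbour of *STE6*, *CBT1*, lies on the other strand, as do those of *STE2* (*GYP8*) and *SAG1* (*APL1*). Any part of these neighbours in the upstream signal was not tested.

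The receptor genes formed a contrast within the promoter. *STE2* encodes the alpha-factor receptor of a cells and *STE3* the a-factor receptor of alpha cells. *STE2* had a strong nucleosome at -180 bp on average (2.30 times the gene mean) and a narrow gap from -80 to +30 bp, where the trough held 0.16 times the gene mean. Its next peak, at +110 bp, reached 1.12 times the gene mean and was followed by a wide gap from +210 to +460 bp, with a trough of 0.080 times the gene mean. In *STE3* peaks stood at -310, -130 and +80 bp with distances of 180 and 210 bp, and the trough between the last pair kept 0.37 times the gene mean. A deeper gap followed from +150 to +320 bp in *STE3*, with a trough of 0.22 times the gene mean. Its deepest gap ran from -500 bp, the edge of the window, to -380 bp, with a lowest level of 0.096 times the gene mean. In the mean profile this gap ends outside the region used for the longest low stretch. No other upstream bound of that region was tried for *STE3*. In YAC1, YAC2, YAC3, YAC6 and YAC7 the distance from the nearest upstream to the first downstream peak was 210, 210, 230, 200 and 200 bp for *STE3*, the 3.54 to 13.8 percentiles of host genes with both peaks. For *STE2* it was 280, 330, 280, 260 and 300 bp, the 23.8 to 66.9 percentiles, around the host median of 290 bp.

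*BAR1*, the secreted protease of a cells that degrades alpha-factor, had one of the widest peak distances. From the peak near -360 bp to that near +120 bp it was 500, 490, 470 and 470 bp in YAC1, YAC2, YAC6 and YAC7, the 94.3 to 97.7 percentiles of host genes. YAC3 stood apart with a peak at -80 bp, inside the promoter window, and a distance of 170 bp. The promoter signal in YAC3 was 0.532 times the median host gene, against 0.0981 to 0.198 times in the other libraries. YAC3 is also the coarsest library, and its *BAR1* promoter window held 182.9 steps per bin, against 108.5 to 201.5 steps in the others. Any part of the coarse steps in this value was not tested.

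The agglutinins are the surface proteins by which cells of opposite type stick together. *AGA2*, the adhesion subunit of a-agglutinin, had a gap from -120 to +70 bp. Its upstream peak at -200 bp reached 0.80 times the gene mean. Downstream, peaks stood at +170, +330, +500 and +670 bp, with distances of 160, 170 and 170 bp. From the nearest upstream to the first downstream peak the distance was 370 ± 25.5 bp (SD, n = 5), above the host median in 5 of 5 libraries. For *MFA1* this distance was 440 to 470 bp in the 3 libraries with both peaks.

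*SAG1*, the alpha-agglutinin gene, lies on a part of chromosome X where listed start sites are off. The mean profile of its 20 nearest neighbours on the same strand matched the host profile best after a shift of 300 bp downstream, and that of 20 neighbours on the other strand after a shift of 310 bp the other way. At the listed start *SAG1* had a nucleosome between 0 and +20 bp in all 5 libraries and peaks at -340, -180, +10, +160 and +330 bp in the mean profile, with distances of 160, 190, 150 and 170 bp. The peak at +330 bp was low, at 0.63 times the gene mean, and a last one stood at +670 bp. From a start moved by 300 bp, the first 4 of these peaks lie upstream. With the windows moved, the promoter ratio defined below was -0.41 ± 0.22 (SD, n = 5), which is 1.57 ± 0.35 above the library median. In YAC1, YAC2, YAC3, YAC6 and YAC7 the longest low stretch was then 70, 0, 70, 0 and 120 bp, still below the host median in every library, though in YAC7 above the 110 bp of *STE2*. The true start was not measured here.

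**Figure D3:**
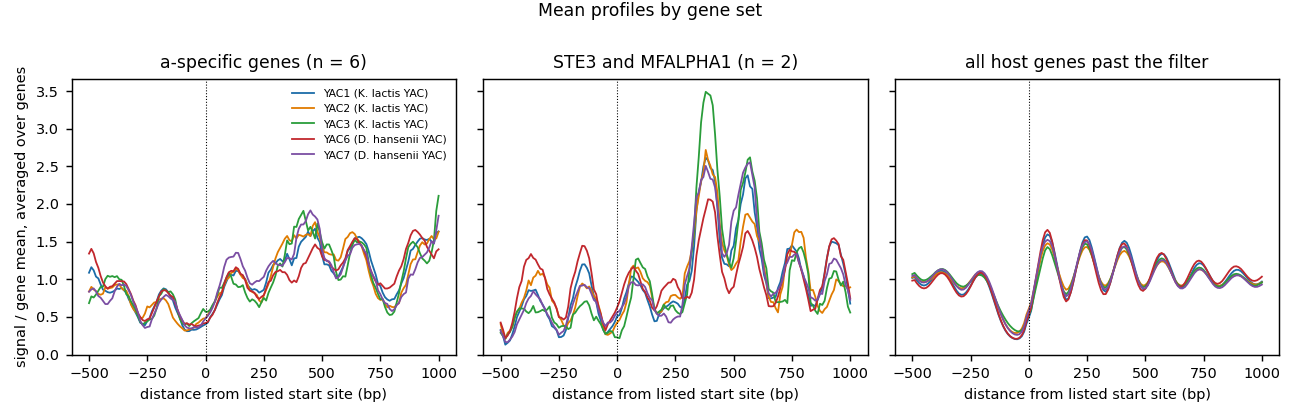
Mean profiles of the 6 a-specific genes, of *STE3* with *MFALPHA1*, and of all host genes past the filter, with each gene scaled to its own mean (y axis) against distance from the listed start site (x axis, bp) and 1 line per library. The host profile has even peaks in every library, while the gene sets differ from it both upstream and downstream of the start. *SAG1* is left out because its listed start is displaced.

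The promoter ratio puts these promoters on the scale of all host genes. It sets the signal between -120 and -20 bp against the body signal between +100 and +500 bp as a log2 ratio, with 0.1 times the gene mean added to both. A lower value means less signal in the promoter window relative to the body, so the ratio also moves with the body signal. That body signal was 1.55 ± 0.46 times the median host gene in *STE6* (SD, n = 5). *STE6* was lowest, with -3.46, -2.97, -3.15, -3.12 and -3.35 in YAC1, YAC2, YAC3, YAC6 and YAC7, all below the host medians of -2.28, -1.76, -1.74, -2.28 and -1.89. *AGA2* had -2.55, -2.72, -2.17, -2.60 and -1.76, below the host median in 4 of 5 libraries. *BAR1* had -2.65, -2.28, -0.25, -2.77 and -2.31. Its YAC3 value was the only one above the host median. *MFA1* had -0.99, -1.06, -1.29, -0.29 and -1.47, all above the host median.

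At the upper end, *MFA2* had 0.17, 0.17, 0.08, 0.37 and 0.06, and *STE2* had 0.40, -0.59, -0.77, 0.57 and -0.50. In both the denominator was low, since the signal from +100 to +500 bp was 0.464 ± 0.11 times the median host gene in *MFA2* and 0.341 ± 0.16 times in *STE2* (SD, n = 5), against about the host level in *STE3* (0.967 ± 0.21 times). *STE2* was higher in YAC1 and YAC6, the finer libraries, than in the other 3, which do not overlap with them. The share of host genes that split in this way was not computed, so the split is not read as particular to *STE2*. Among alpha-specific genes, *STE3* had -0.51, -0.27, -0.98, -0.46 and -0.36, *MFALPHA1* -1.42, -1.90, -2.09, -0.82 and -1.48, and *SAG1* 0.78, -0.16, 0.01, 0.22 and 0.66 at its listed start. *STE3* and *SAG1* stood above the host median in 5 of 5 libraries and *MFALPHA1* in 3.

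**Figure D4:**
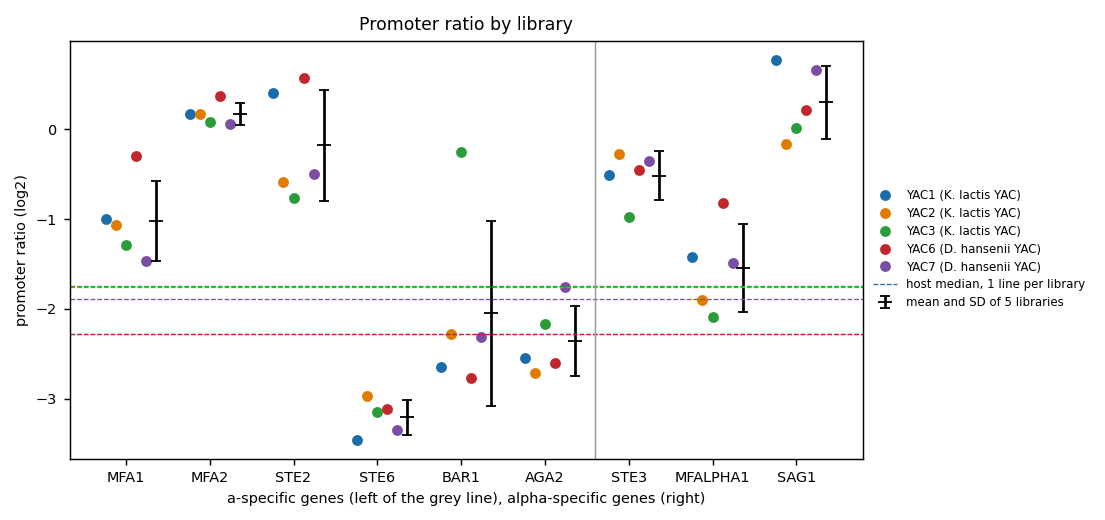
Promoter ratio (y axis, log2) of each gene (x axis), with 1 point per library, the mean and SD of 5 libraries in black and the host median of each library as a dashed line (YAC1 and YAC6 overlap, as do YAC2 and YAC3). *STE6* lies below all host medians and *MFA2*, *STE2*, *STE3* and *SAG1* lie above them.

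Relative to the host median of each library, 6 of the 9 genes differed in limma with Benjamini-Hochberg adjustment over 5252 host genes at a threshold of 0.05, of which 64.5% were called. That share is close to the share of the 9 genes, so the count says nothing particular about them. *STE6* was lower by 1.22 ± 0.25 on the log2 scale (mean difference -1.22, SD, n = 5, limma adjusted p = 4.1e-05), in a direction called for 32.2% of host genes. Higher than the median were *SAG1* (2.29 ± 0.60, limma adjusted p = 4.2e-05), *MFA2* (2.16 ± 0.37, 1.5e-05), *STE2* (1.81 ± 0.88, 0.00079), *STE3* (1.47 ± 0.42, 0.00016) and *MFA1* (0.97 ± 0.67, 0.0072), a direction called for 32.3% of host genes. *MFALPHA1* (0.45 ± 0.74, limma adjusted p = 0.157), *AGA2* (-0.37 ± 0.39, 0.0665) and *BAR1* (-0.06 ± 0.87, 0.860) did not pass.

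The ratio of several genes depended on the windows used. With a promoter window of -200 to 0 bp, *MFA1* turned to -0.22 (limma adjusted p = 0.229), and *AGA2* (-0.72, 0.00218) and *BAR1* (-0.61, 0.0497) passed as lower. In that window *MFA2* (0.98) and *STE3* (0.65) passed with smaller values. With the lowest 100 bp from -350 to +50 bp, an alternative that was not planned, *MFA1* was at -0.068 (0.709) and *MFA2* at 0.32 (0.0677), while *STE2* (1.29), *STE3* (1.30), *SAG1* (2.10) and *STE6* (-1.16) still passed. A body window of +50 to +250 bp ended the call of *STE6* (-0.28, limma adjusted p = 0.111), and *MFALPHA1* passed as higher (1.21, 0.00095). With the whole stretch as denominator *MFALPHA1* also passed as higher (0.96, limma adjusted p = 0.0018), and *STE2* (0.68) and *STE6* (-0.46) passed with smaller values. Without YAC3, *BAR1* passed as lower (-0.45, 0.00691) and *MFALPHA1* as higher (0.65, 0.0443), and without YAC7, *AGA2* passed as lower (-0.50, 0.0328).

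By set, the median promoter ratio of the a-specific genes was -1.77, -1.67, -1.03, -1.45 and -1.62 in YAC1, YAC2, YAC3, YAC6 and YAC7, and that of the alpha-specific genes was -0.51, -0.27, -0.98, -0.46 and -0.36. The a-specific median was below the alpha-specific one in 5 of 5 libraries, by -0.99 ± 0.55 (SD, n = 5), and both were above the host median. The difference was small in YAC3 (-0.05). Without *SAG1* it was -0.48 ± 0.56, below 0 in 4 of 5 libraries and 0.51 in YAC3. With the windows of *SAG1* moved by 300 bp it was -0.93, and with the lowest 100 bp it was -1.43 ± 0.43. The a-specific genes spread from *STE6* to *MFA2* by more than the sets differed, so the ratio did not separate the sets gene by gene. The length of the gap did so in 4 of 5 libraries as first measured, though narrowly in YAC1 and YAC7 (110 against 100 bp). It did so in 3 of 5 either at 0.7 times the gene mean or with the region of *SAG1* moved.

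Regular arrays did not set the genes apart from the host in one direction. Array regularity is the highest autocorrelation of the smoothed profile from 0 to +1000 bp at distances of 130 to 200 bp. A higher value can mean more even spacing, but at 130 bp it also tracks the width of peaks. *MFA1* was lowest, with -0.250, -0.305, -0.211, -0.445 and -0.205 in YAC1, YAC2, YAC3, YAC6 and YAC7, against host medians of 0.209, 0.154, 0.114, 0.385 and 0.139, all positive. It differed from the host median by -0.483 ± 0.20 (SD, n = 5, limma adjusted p = 0.00057), in a direction called for 22.6% of 5251 host genes. Its profile had gaps at +180 to +330 and +680 to +810 bp. *STE6* (0.180 ± 0.16, limma adjusted p = 0.0487) and *SAG1* (0.149 ± 0.07, 0.0444) passed as higher, as did 23.2% of host genes. With a fixed distance of 160 bp neither passed (limma adjusted p = 0.396 and 0.566), while *MFA1* still passed as lower (-0.561, 0.00028). The highest value lay at 130 bp in every library for *MFA1* and *STE6*, and in every library but YAC6 for *SAG1*. In its mean profile *STE6* had downstream peaks only at +330 and +630 bp, with a distance of 300 bp, so its value is not read as even spacing. The regularity of *SAG1* is taken from its listed start, which is displaced, and none was computed with the window moved. The other 6 genes did not pass in either direction, and in all 45.8% of host genes were called. Without YAC6, where *STE3* stood apart, *STE3* passed as higher (0.183, limma adjusted p = 0.0155). The call of *STE6* was lost without YAC1, YAC2, YAC3 or YAC7 (0.140 to 0.186), and that of *SAG1* without any 1 of the 5 libraries (0.122 to 0.163).

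The maximum lay at 130 bp, the lower bound, in 33 of 45 member values, and there it tracks the width of peaks as well as their repeat. Among host genes it lay there in 8.13% (YAC6) to 44.8% (YAC7). In the a-specific genes the median regularity was 0.206, 0.207, 0.071, 0.330 and 0.052 in YAC1, YAC2, YAC3, YAC6 and YAC7, and in the alpha-specific genes it was 0.307, 0.333, 0.208, 0.216 and 0.279. The difference between the sets was -0.096 ± 0.13 (SD, n = 5), below 0 in every library but YAC6, where it was 0.115. From -500 to +500 bp, which takes in the upstream nucleosomes, the difference turned to 0.184 ± 0.17. In that window *STE6* (0.576), *AGA2* (0.515), *MFALPHA1* (0.391) and *MFA2* (0.294) passed as higher and *MFA1* (-0.437) and *STE3* (-0.246) as lower, with limma adjusted p between 3.1e-05 and 0.00153. The order of the sets in regularity thus changed with the window.

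No difference passed the limma test between the strains with *K. lactis* DNA and those with *D. hansenii* DNA. In simulated data this test recovered 0% of shifts of 1 in promoter ratio and 48.5% of shifts of 2. For regularity it recovered 0% of shifts of 0.4 and 65.5% of shifts of 0.8. It therefore cannot decide on smaller differences, such as those of the 9 genes. Relative to the library median, the largest difference in promoter ratio was that of *MFALPHA1*, which averaged 0.12 in *K. lactis* YAC strains and 0.93 in *D. hansenii* YAC strains (difference -0.81 ± 0.62, SE, limma adjusted p = 0.997). *BAR1* averaged 0.20 and -0.46 in the same order (0.66 ± 0.83). The limma fit called 0.0% of host genes for the promoter ratio and 0.0% for regularity after adjustment. At an unadjusted p under 0.05 it called 0.305% and 2.04%, with 0 of the 9 genes among them in both measures. In none of the 9 genes did the strain groups fail to overlap in either measure, against 9.54% and 12.4% of host genes. The exact permutation test over strains gave p between 0.3 and 0.9 for the promoter ratio and between 0.2 and 1.0 for regularity of the 9 genes (two-sided, smallest possible p = 0.1 with 3 strains against 2).

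Other genes of the mating pathway were split in promoter ratio. Of 33 listed genes for pheromone signalling, pheromone processing and mating regulators, 32 were tested and *STE5* was not. By promoter ratio 12 were lower than the library median and 13 higher, against 32.2% and 32.3% of host genes, and 7 did not pass (limma, adjusted over all host genes). The median of the 32 genes lay 0.02 above the library median. The lowest were *KEX1*, a carboxypeptidase that trims alpha-factor, at -3.35 ± 0.25, and *STE7*, the MAP kinase kinase of the pheromone pathway, at -3.26 ± 0.56 (SD, n = 5). The highest were *STE18*, the gamma subunit of the pheromone-responsive G protein, at 0.16 ± 0.30, and *STE24*, a protease that matures a-factor, at -0.15 ± 0.17. Both lie on chromosome X, where listed starts can be off. Of the 33 listed genes, 6 lie on chromosomes II and X, which an alternative leaves out. The pathway counts were not made without them. For regularity, 5 of the 32 were lower and 10 higher, against 22.6% and 23.2% of host genes, and 17 did not pass. *ASG7*, a further a-specific gene on chromosome X, had a promoter ratio of -1.17 ± 0.35 (limma adjusted p = 0.0016, higher than the median).

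Pairs of the 9 genes ranged widely in likeness of shape. Across the bins of the mean profiles, pairs of a-specific genes correlated with a median r of 0.0572 (-0.332 to 0.681, 15 pairs), and pairs of an a-specific with an alpha-specific gene with a median r of 0.144 (-0.425 to 0.719, 18 pairs). The 3 pairs of alpha-specific genes had a median r of -0.0090 (-0.354 to 0.260), with *SAG1* at its listed start. No value was computed for pairs of host genes. These are descriptions over bins of the same libraries. The host genes most like the mean of the 6 a-specific profiles were *PGI1* (r = 0.860), *NTH2* (0.795) and *GAS1* (0.787). Those most like the mean of *STE3* and *MFALPHA1* were *FKS1* (0.863), *ERG26* (0.848) and *PRO2* (0.826). With the mean host profile, *SAG1* (r = -0.226), *MFA2* (0.0106) and *STE2* (0.0971) correlated least, against a host median of 0.475, and *BAR1* (0.472) most.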

How the data were processed

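Per the labels' protocols, gel-purified mononucleosomal DNA of 5 strains was made into Illumina libraries, and the submitters' processing notes name CASAVA 1.7.0. For aligner, build, read extension and start sites, the source is not given in the sources used here. Per the file headers, the authors deposited signal (coverage) in bins of 10 bp. Within a table the lower values, the only ones checked, were multiples of a smallest step, within 0.02 steps. A step is not a read. Depth is unknown, so no counting interval was computed. Insert tables were not used. In 214 host genes a suffix letter had slipped into the strand column, and the full name was restored. Symbols and gene order came from a table of assembly R64.

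Host genes were left out if their mean signal fell under 10% of the library median in any library. Profiles were smoothed with a Gaussian of SD 20 bp for peaks, gaps and autocorrelation. Peaks needed a prominence of 0.15 times the gene mean. The nearest upstream peak was sought from -450 to -60 bp and the first downstream peak from 0 to +200 bp. Promoter ratios and regularity, minus the library median, were tested with limma 3.58.1 in R 4.3.3 (empirical Bayes with a mean trend, Benjamini-Hochberg over all host genes, threshold 0.05). The fits were tested on simulated data. Python 3.11.15, numpy 2.4.6 and scipy 1.17.1 were used.

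The members and lists were chosen with earlier results of these data known. Named genes are all members, the 2 lowest and 2 highest of the pathway list by promoter ratio, and the 3 most alike profiles per set. *STE5* and *ASG7* were named besides, as were the upstream neighbours *CBT1*, *GYP8* and *APL1*. A planned motif search and printing of sequences were not done, since no sequence was used here. Alternatives were other windows, pseudocounts, smoothing and distances, no filter, chromosomes II and X left out, a covariate for the finer libraries, and each library left out.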

Additional observations from a re-analysis of the deposited data

Results flagged for a closer look

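The 5 libraries were compared for each of the 9 genes in promoter ratio and array regularity, relative to the library median, in 18 sets of values, of which chance flags about 1 in 20. Of these, 3 held a library far from the others by Dixon's rule. The promoter ratio of *BAR1* in YAC3 was 1.49 above the library median, against -0.51 to -0.37 in the other libraries. The array regularity of *MFA1* in YAC6 was -0.829, against -0.459 to -0.325 in the others. The array regularity of *STE3* in YAC6 was -0.221, against 0.162 to 0.210 in the others.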

How the results depend on the processing

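No paired analysis was possible because the labels give the strains no replicate numbers shared between groups. The length of the gap kept its direction between the sets at 0.7 times the gene mean (174 bp, against 140 bp), at 0.3 times (a move of less than 1 SD) and with each library left out (130 to 157.5 bp). The set difference in promoter ratio stayed below 0 with each library left out (-1.23 to -0.89) and in every alternative run. That in regularity moved to 0.184 from -500 to +500 bp, was 0.029 from -500 to +1000 bp and ranged from -0.148 to -0.063 with each library left out. By promoter ratio, 0 members were called lower with a body window of +50 to +250 bp, 3 with a promoter window of -200 to 0 bp, 2 with a pseudocount of 0.5 times the gene mean and 1 to 2 with each library left out. Called higher were 3 with the lowest 100 bp and 5 to 6 with each library left out. By regularity, 0 members were called higher at 160 bp, without smoothing and without chromosomes II and X, 5 from -500 to +1000 bp, 4 from -500 to +500 bp and 0 to 2 with each library left out. Called lower were 2 from -500 to +500 bp and 2 without smoothing. The cause of these changes was not tested.

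Signs turned for 4 genes in promoter ratio. *MFA1* was at -0.22 (-200 to 0 bp) and -0.068 (lowest 100 bp), and *MFALPHA1* at -0.10 (-200 to 0 bp). *AGA2* was at 0.37 (body +50 to +250 bp) and 0.17 (whole stretch as denominator). *BAR1*, never called in its main value, was at 0.51 and 0.085 in those settings, 0.036 without chromosomes II and X, and -0.45 (without YAC3) to 0.051 (without YAC2) with each library left out. In regularity *AGA2* was at 0.515 (-500 to +500 bp), 0.215 (-500 to +1000 bp), 0.024 (160 bp) and 0.0017 (no smoothing). *BAR1* was at 0.169 and 0.156 in those windows, *STE2* at 0.095 and *STE3* at -0.246 from -500 to +500 bp. *MFALPHA1* was at -0.059 without smoothing, -0.017 at 160 bp and -0.027 (without YAC2) to 0.060 (without YAC6) with each library left out. Among the emptiest windows, that of *STE6* held 34.5 steps per bin in YAC3, the coarsest library, and 45.5 in YAC2. Any part of the coarse steps in such values was not tested. The promoter ratio of *STE6* was at -1.46 with a pseudocount of 0.02 times the gene mean and at -0.80 with 0.5 times, against -1.22. The strain comparison called 0 genes in every alternative, the finer-library covariate included. In simulated data its main form recovered 0% of shifts of 1 in promoter ratio, so small differences would be missed.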
